A study of Mus musculus with 20 samples.

Results

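Glucocorticoid-induced genes are transcripts that rise when corticosterone, the main glucocorticoid of mice, binds the glucocorticoid receptor. The ligand-bound receptor leaves a complex with Hsp90 and its co-chaperones, enters the nucleus and binds DNA at paired half-sites called glucocorticoid response elements. In brain its targets are read as a footprint of stress hormone, of the daily hormone rhythm and of fasting, and they act in metabolism, ion transport, inflammation and feedback on the receptor itself. Here 10 genes, chosen by name from the 24528 genes of the deposited expression table, were followed. They comprise the receptor Nr3c1 and 9 genes known to be induced through it, Klf15, Sgk1, Tsc22d3, Fkbp5, Zbtb16, Errfi1, Txnip, Pdk4 and Arrdc2. All 10 were measured and passed the filter on genes without signal.

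RNA of whole brain tissue was sequenced, after removal of ribosomal RNA, from 2 regions of mice aged 18 months. TDP-43 KQ/KQ mice (KQ) carry, on both alleles of Tardbp, a lysine-to-glutamine change that mimics acetylation of TDP-43 and disrupts its binding to RNA, and TDP-43wt mice (WT) carry the unmodified protein. The neocortex gave 6 KQ libraries (3 female, 3 male) and 5 WT libraries (3 female, 2 male). The hippocampus gave 5 KQ libraries (3 female, 2 male) and 4 WT libraries (3 female, 1 male). The change is present in every cell of the animal and from conception, so the libraries are of whole tissue from a constitutive model and not of 1 cell type. Libraries are named by sex and number, such as F2 or M1.

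The values are on a log2-like scale and each gene is centred on its own neocortex KQ mean, so they give differences and not expression levels, and levels cannot be compared between genes. Sex and litter had been taken out over both regions jointly, which ties libraries to each other. The neocortex WT M1 library, alone in its litter, sat at its group mean in every gene tested (largest deviation 3.8e-08), so it added a number but no information. The KQ F2 libraries of neocortex and hippocampus, the only ones of their litter, deviated from their group means as mirror images (r = -1). Group SDs are therefore too small, and the fit below charges for sex and litter again (11 residual degrees of freedom). Tardbp, the mutated gene, was higher in KQ in every library, from -0.098 to 0.13 in KQ neocortex against -1.07 to -0.90 in WT neocortex, and from -0.16 to 0.16 in KQ hippocampus against -1.03 to -0.62 in WT hippocampus. The 4 hippocampus markers Prox1, Zbtb20, C1ql2 and Dsp averaged 2.24 in KQ and 2.54 in WT hippocampus, against 0 in KQ and -0.0691 in WT neocortex. The 4 neocortex markers Rorb, Cux2, Tbr1 and Fezf2 averaged -0.806 in KQ and -0.73 in WT hippocampus, against 0 in KQ and -0.0846 in WT neocortex. The 2 WT F2 libraries stood apart for the genes followed here. The neocortex one was the lowest WT library for 9 of the 9 induced genes and the hippocampus one for 8 of 9. Over all genes tested they had the widest deviations among WT libraries (SD 0.0925 in neocortex, 0.131 in hippocampus). KQ libraries had SDs up to 0.108 in neocortex (F2) and 0.13 in hippocampus (F3), so WT F2 was not set apart from these. The deviations of the 2 WT F2 libraries went together between the regions (r = 0.722). Each result is given without the WT F2 libraries where that changes it.

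Promoter sequences were searched because a receptor target may carry its response element close to a start site. RefSeq promoters (250 bases before to 50 after a start, GRCm38.p6) were at hand for 8 of the 9 induced genes, 16 starts in all, with none used for Zbtb16. The perfect element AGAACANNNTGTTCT, which reads the same on both strands, occurred in 3 of 32851 promoters (0.00913%), and 1 of the 3 belongs to Sgk1. It begins 189 bases before 1 of the Sgk1 starts, at chr10:21993640-21993939 on the plus strand. A relaxed form, GNACANNNTGTNC, also its own reverse complement and contained in the perfect one, occurred in 156 promoters (0.475%), among them that of Sgk1 and that of Txnip. The Txnip promoter, at chr3:96557707-96558006 on the plus strand, holds it 172 bases before the start, and 85 bases before the start holds the carbohydrate response element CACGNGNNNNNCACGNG (searched on both strands), which is bound by ChREBP and MondoA and occurred in 16 promoters (0.0487%). The 2 sequences are shown because Sgk1 and Txnip follow each other across libraries in the neocortex, described further on. In the hippocampus this pair did not pass (r = 0.706, exact permutation, adjusted p = 0.199). A link between the elements and covariation was not tested. Capitals mark the perfect element in Sgk1 and, in Txnip, the relaxed element and then the carbohydrate response element.
Sgk1: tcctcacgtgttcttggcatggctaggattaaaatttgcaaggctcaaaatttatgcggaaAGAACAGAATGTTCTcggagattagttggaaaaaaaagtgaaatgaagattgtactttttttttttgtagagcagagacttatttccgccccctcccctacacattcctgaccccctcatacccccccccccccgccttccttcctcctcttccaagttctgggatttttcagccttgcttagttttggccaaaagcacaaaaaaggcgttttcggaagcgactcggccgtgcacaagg
Txnip: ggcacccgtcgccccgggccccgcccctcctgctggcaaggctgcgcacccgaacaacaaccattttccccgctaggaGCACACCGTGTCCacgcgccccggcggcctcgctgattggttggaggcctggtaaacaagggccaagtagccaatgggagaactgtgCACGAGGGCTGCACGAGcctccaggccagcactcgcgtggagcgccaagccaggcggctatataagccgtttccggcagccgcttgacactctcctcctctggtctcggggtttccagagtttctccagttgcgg
The single half-site TGTTCT (both strands) was in promoters of Sgk1 and Tsc22d3 and in 19% of all promoters. The E-box CACGTG, a palindrome bound by clock proteins among others, was in promoters of Klf15, Sgk1 and Fkbp5 and in 7.15% of all promoters. The Klf15 promoter holds it at 3 places, 228, 172 and 3 bases before the start. These are matches of letters, and receptor binding was not measured here. Many elements of these genes are known to lie farther from the start than the windows reach.

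The first comparison asks whether the induced genes differ between KQ and WT mice in the neocortex. All 9 were higher in KQ neocortex on average, and for 8 of them every KQ library lay above every WT library, a pattern that 4.29% of the 17863 genes tested showed. Only Klf15 passed the test across all genes, where 0.106% of genes were called higher in KQ. The 10 genes were chosen with earlier results of these data known, so their standing against all genes is a description and not a test. Their median KQ minus WT difference was 0.35 on the log2 scale, against -0.00173 over all genes tested. These differences cannot separate more RNA per cell from more cells of a type that makes it, as in any bulk tissue.

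Klf15 encodes a zinc finger transcription factor that controls amino acid and glucose metabolism and is a direct receptor target. It ran from -0.052 to 0.10 with a median of -0.016 in KQ neocortex, against -0.31, -0.57, -0.44, -0.43 and -0.41 in WT libraries F1, F2, F3, M1 and M2. The groups were 0.25 apart at their nearest libraries. The difference was 0.43 ± 0.062 (SE), or 1.35-fold, with an adjusted p of 0.0117 (limma, Benjamini-Hochberg). Klf15 was also the tightest of the 10 genes among KQ libraries (SD 0.058, n = 6).

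Sgk1, a kinase that regulates ion channels and transporters and is among the fastest receptor targets, had the second lowest adjusted p. Its KQ neocortex libraries lay between -0.11 and 0.15 with a median of -0.02, against -0.27, -0.75, -0.53, -0.57 and -0.71 in WT. The difference was 0.57 ± 0.11 (SE), 1.48-fold, with an adjusted p of 0.0508, just outside the threshold of 0.05. Arrdc2, an alpha-arrestin family member, had the widest difference of the 10 genes in the neocortex, 0.65 ± 0.15 (adjusted p = 0.0825). It lay between -0.19 and 0.28 in KQ neocortex, against -0.40, -0.95, -0.59, -0.65 and -0.66 in WT. Both genes separated the groups completely without passing the test.

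The repressors and brakes of signalling were also separated without being called. Zbtb16, a transcriptional repressor also called PLZF, lay between -0.34 and 0.37 in KQ neocortex, against -0.40, -0.80, -0.66, -0.58 and -0.45 in WT (difference 0.58 ± 0.17, adjusted p = 0.171). Errfi1, which inhibits the epidermal growth factor receptor, lay between -0.14 and 0.075 in KQ neocortex, against -0.29, -0.47, -0.37, -0.35 and -0.27 in WT (difference 0.35 ± 0.082, adjusted p = 0.0878). Tsc22d3, the leucine zipper protein GILZ that restrains NF-kappaB and AP-1, lay between -0.18 and 0.29 in KQ neocortex, against -0.22, -0.44, -0.24, -0.33 and -0.43 in WT (difference 0.33 ± 0.099, adjusted p = 0.177). In each of the 3 the lowest KQ library was above the highest WT library, by 0.059 for Zbtb16, 0.12 for Errfi1 and 0.047 for Tsc22d3.

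The same held for the 2 genes that limit glucose use. Txnip, which binds thioredoxin and curbs glucose uptake, lay between -0.16 and 0.19 in KQ neocortex, against -0.24, -0.48, -0.33, -0.35 and -0.35 in WT (difference 0.35 ± 0.096, adjusted p = 0.153). Pdk4, the kinase that switches off pyruvate dehydrogenase, lay between -0.19 and 0.25 in KQ neocortex, against -0.21, -0.48, -0.26, -0.33 and -0.37 in WT (difference 0.33 ± 0.099, adjusted p = 0.179). The gap between the groups was 0.022 for Pdk4 and 0.084 for Txnip.

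Feedback genes did not separate. Fkbp5, an Hsp90 co-chaperone that lowers the affinity of the receptor for hormone and is one of its most inducible targets, lay between -0.27 and 0.25 in KQ neocortex, against 0.062, -0.43, -0.20, -0.16 and -0.069 in WT. Its difference was 0.16 with a 95% interval from -0.12 to 0.44 (adjusted p = 0.568), so a rise as large as that of Klf15 lies at the edge of what the data allow. Nr3c1, the receptor, lay between -0.12 and 0.16 in KQ neocortex, against 0.031, 0.22, 0.10, 0.10 and 0.051 in WT, a difference of -0.10 with an interval from -0.26 to 0.056 (adjusted p = 0.513).

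**Figure D1:**
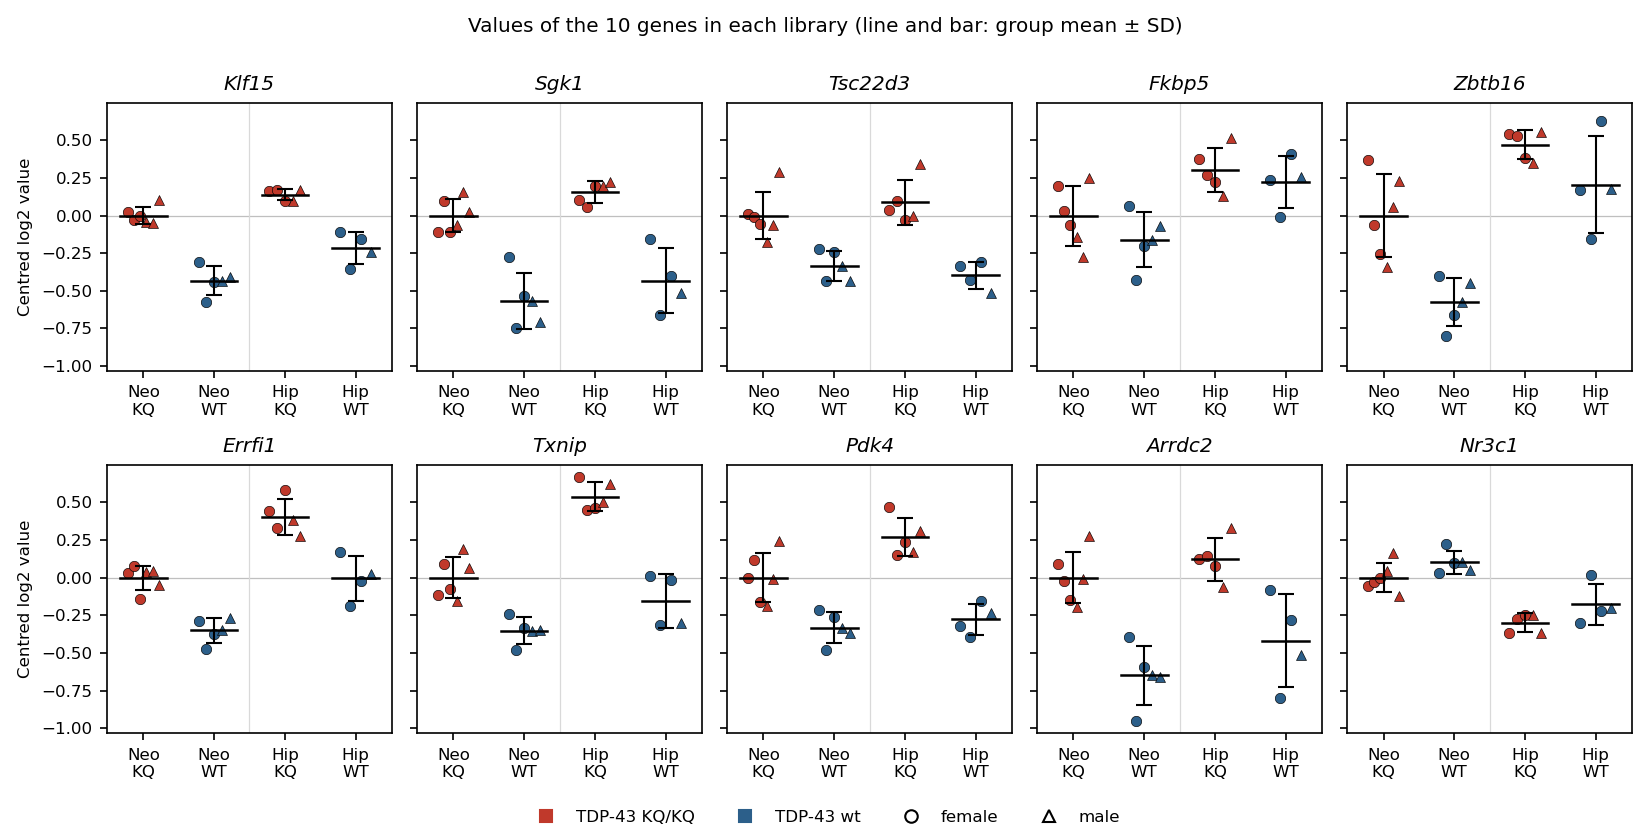
Centred log2 value (vertical axis) of each of the 10 genes in KQ and WT libraries of neocortex (Neo) and hippocampus (Hip); circles are female and triangles male libraries, lines are group means and bars SDs. KQ libraries lay above WT libraries for 8 genes in the neocortex and 7 in the hippocampus, whereas Fkbp5 and Nr3c1 overlapped in both.

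The neocortex call rested on few libraries. Klf15 was no longer called without KQ F1 (adjusted p = 0.0791), WT F3 (0.0535) or WT M2 (0.0581) of the neocortex, although its difference stayed between 0.39 and 0.47 in all 20 fits that left out 1 library. With the other neocortex libraries left out in turn, and with each hippocampus library left out, 1 to 5 genes were called, the highest count being 5 without KQ M1, 4 without hippocampus WT F2 and 2 without WT F1 of either region.

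In the hippocampus 9 of 9 induced genes were again higher in KQ on average, and 4 rose by the test, Txnip, Klf15, Pdk4 and Sgk1, where 0.14% of all genes were called higher. For 7 of the 9 every KQ library was above every WT library, against 4.19% of all genes tested. The 10 genes had a median difference of 0.446 on the log2 scale, against -0.00105 over all genes. As in the neocortex, this only describes genes that were chosen with earlier results known.

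Txnip showed the widest difference of the 10 genes in the hippocampus. It had 0.67, 0.45, 0.46, 0.50 and 0.62 in KQ libraries F1, F2, F3, M1 and M2, against 0.012, -0.32, -0.018 and -0.30 in WT libraries F1, F2, F3 and M1. The lowest KQ library was 0.43 above the highest WT library, and the difference was 0.69 ± 0.10, 1.62-fold (adjusted p = 0.00851). Pdk4 had 0.47, 0.15, 0.24, 0.17 and 0.31 in KQ hippocampus, against -0.32, -0.40, -0.16 and -0.23 in WT (difference 0.54 ± 0.11, adjusted p = 0.0391). Both genes that limit glucose use were thus well apart here, the lowest KQ and highest WT libraries of Pdk4 lying 0.31 from each other.

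Klf15 had 0.16, 0.17, 0.097, 0.10 and 0.17 in KQ hippocampus, against -0.11, -0.35, -0.16 and -0.24 in WT (difference 0.36 ± 0.067, adjusted p = 0.0363). It was the only gene of the 10 called in both regions. Sgk1 had 0.10, 0.057, 0.20, 0.20 and 0.23 in KQ hippocampus, against -0.15, -0.66, -0.40 and -0.51 in WT (difference 0.59 ± 0.12, adjusted p = 0.0494). Its difference was of the same size as in the neocortex and fell just inside the threshold.

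Tsc22d3 and Errfi1 separated the genotypes but missed the threshold. Tsc22d3 had 0.039, 0.095, -0.031, -0.0046 and 0.34 in KQ hippocampus, against -0.34, -0.43, -0.31 and -0.51 in WT (difference 0.49 ± 0.11, adjusted p = 0.0665). Errfi1 had 0.44, 0.33, 0.58, 0.38 and 0.27 in KQ hippocampus, against 0.17, -0.19, -0.022 and 0.027 in WT (difference 0.41 ± 0.088, adjusted p = 0.0648). Arrdc2 separated them by only 0.015, with 0.12, 0.14, 0.08, -0.064 and 0.33 in KQ hippocampus, against -0.08, -0.80, -0.28 and -0.51 in WT (difference 0.54 ± 0.16, adjusted p = 0.162).

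Zbtb16, Fkbp5 and Nr3c1 overlapped between the genotypes. Zbtb16 had 0.54, 0.53, 0.38, 0.35 and 0.55 in KQ hippocampus, against 0.17, -0.16, 0.63 and 0.18 in WT, where WT F3 was the highest of all 9 libraries (difference 0.27 ± 0.18, adjusted p = 0.506). Fkbp5 had 0.38, 0.27, 0.22, 0.13 and 0.51 in KQ hippocampus, against 0.24, -0.0085, 0.41 and 0.26 in WT, a difference of 0.079 with a 95% interval from -0.22 to 0.38 (adjusted p = 0.836). Nr3c1 had -0.37, -0.27, -0.25, -0.24 and -0.37 in KQ hippocampus, against -0.30, 0.017, -0.22 and -0.20 in WT, a difference of -0.12 with an interval from -0.29 to 0.046 (adjusted p = 0.492).

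**Figure D2:**
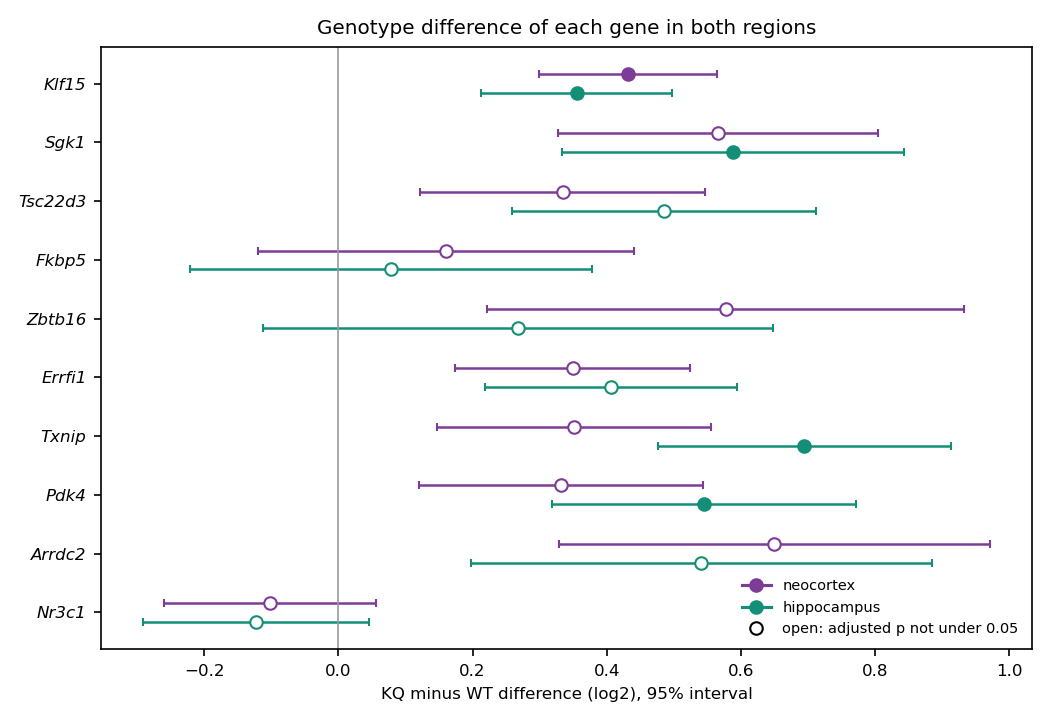
KQ minus WT difference of each gene (horizontal axis, log2) with its 95% interval in neocortex and hippocampus, filled where the adjusted p was under 0.05. Klf15 was called in both regions, and Txnip, Pdk4 and Sgk1 in the hippocampus.

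The hippocampus calls also depended on single libraries, while directions did not. Txnip lost its call without hippocampus KQ F1 (difference 0.62, adjusted p = 0.102) or WT M1 (0.60, adjusted p = 0.0861), and no gene of the 10 was then called. Leaving out hippocampus WT F2, WT F3, KQ M1 or KQ M2, or neocortex WT F3, KQ F1, WT M2 or KQ M2, left 1 called. Over the 20 fits Klf15 kept its call in 10, Pdk4 in 8 and Sgk1 in 7, with differences from 0.31 to 0.39, 0.44 to 0.62 and 0.51 to 0.68. Without both WT F2 libraries 2 genes were called, Klf15 and Txnip, beside 41 of the 17863 genes tested.

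Marker levels of other cells differed with genotype in some lists, and their part in these results was not tested. The 5 choroid plexus markers Ttr, Folr1, Kl, Aqp1 and Kcnj13 averaged from 0.252 to 4 over KQ and from -0.00397 to 2.26 over WT hippocampus libraries, with 5 of 5 higher in KQ and none called. The 4 meningeal fibroblast markers Dcn, Col1a1, Col1a2 and Lum averaged from 0.503 to 0.959 over KQ and from 0.116 to 0.473 over WT hippocampus libraries, with 4 of 4 higher and 1, Lum, called (adjusted p = 0.0364). The 4 oligodendrocyte markers Mbp, Mog, Mag and Mobp ran the other way, with averages from -0.106 to 0.106 over KQ and from 0.0731 to 0.323 over WT neocortex libraries, and from -0.0158 to 0.295 over KQ and from 0.325 to 0.53 over WT hippocampus libraries. None of the 4 was called in either region. The 5 mural cell markers were higher in KQ for 5 of 5 genes in the neocortex (averages from -0.145 to 0.311 over KQ and from -0.21 to -0.0431 over WT libraries) and for 4 of 5 in the hippocampus (from 0.044 to 0.345 over KQ and from -0.191 to 0.295 over WT). The 5 microglia markers were lower in KQ for 5 of 5 genes in both regions, with averages from -0.12 to 0.0802 over KQ and from 0.052 to 0.234 over WT neocortex libraries, and from -0.0487 to 0.101 over KQ and from 0.0913 to 0.423 over WT hippocampus libraries. The 5 astrocyte markers were lower for 5 of 5 genes in KQ neocortex (averages from -0.149 to 0.099 over KQ and from 0.0764 to 0.203 over WT) and for 4 of 5 in KQ hippocampus (from 0.406 to 0.56 over KQ and from 0.398 to 0.75 over WT). The 5 neuron markers were lower for 3 of 5 genes in KQ neocortex and 5 of 5 in KQ hippocampus, where averages ran from -0.453 to -0.302 over KQ and from -0.26 to -0.173 over WT. The 5 endothelial markers were lower for 4 of 5 and 3 of 5 genes, and the 4 red blood cell markers for 4 of 4 and 1 of 4, in the neocortex and hippocampus in that order. None of these 6 lists held a called gene in either region. Because the values carry no zero, markers at or near zero expression cannot be singled out.

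The genotype difference was then compared between the regions. For no gene of the 10 did it differ by the test, and none of the 17863 genes tested did (0% called, 1041 genes at an unadjusted p under 0.05). Txnip came nearest, with a genotype difference 0.34 ± 0.13 wider in the hippocampus (unadjusted p = 0.0191, adjusted p = 0.815, limma). With separate sex and litter terms in the 2 regions and the female mouse as a random effect, a setting added after seeing the data, that difference was 0.56 (adjusted p = 0.0248) and 855 genes were called. For Klf15 the difference of the differences was -0.077 with a 95% interval from -0.26 to 0.10, for Sgk1 0.023 from -0.30 to 0.35, and for Zbtb16 -0.31 from -0.79 to 0.17, so the interval leaves room for a difference of 0.35 in Sgk1 and, for Zbtb16, for one wider than its genotype difference in either region.

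Between the regions 5 of the 10 genes differed within KQ mice, where 35.4% of all genes were called, and 5 within WT mice, where 28.2% were called. A share of 5 in 10 is not far above these. Errfi1, Zbtb16 and Nr3c1 were called in both genotypes. Errfi1 was higher in hippocampus by 0.40 ± 0.074 in KQ (adjusted p = 0.000561) and by 0.35 ± 0.084 in WT (adjusted p = 0.00613). Zbtb16 was higher in hippocampus by 0.47 ± 0.15 in KQ (adjusted p = 0.0233) and by 0.78 ± 0.17 in WT (adjusted p = 0.00287). The receptor Nr3c1 was lower in hippocampus, by -0.30 ± 0.066 in KQ (adjusted p = 0.00249) and -0.28 ± 0.076 in WT (adjusted p = 0.0119).

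In the fit across all 20 libraries the other calls fell in 1 genotype only, which does not show that the genotypes differ. With the female mouse as a random effect 7 genes were called in KQ, Klf15 (0.14, adjusted p = 0.0331) and Fkbp5 (0.29, adjusted p = 0.0415) joining, and 5 in WT. Over all 17863 genes tested that setting called 7031 in KQ and 6019 in WT, also more than the reported fit. Txnip was higher in hippocampus by 0.54 ± 0.086 in KQ (adjusted p = 0.000169) and by 0.20 ± 0.098 in WT (adjusted p = 0.155), and Pdk4 by 0.27 ± 0.089 in KQ (adjusted p = 0.0285) and by 0.056 ± 0.10 in WT (adjusted p = 0.721). Klf15 was higher in hippocampus by 0.14 ± 0.056 in KQ (adjusted p = 0.0665) and by 0.22 ± 0.064 in WT (adjusted p = 0.0196), and Fkbp5 by 0.30 ± 0.12 in KQ (adjusted p = 0.0593) and by 0.38 ± 0.13 in WT (adjusted p = 0.0448). Sgk1, Tsc22d3 and Arrdc2 were called in neither, with differences between -0.063 and 0.23. Ordered by group mean, Klf15, Sgk1, Pdk4, Arrdc2, Txnip and Errfi1 ran hippocampus KQ, neocortex KQ, hippocampus WT and neocortex WT. Both KQ groups thus stood above both WT groups, though for Errfi1 neocortex KQ (0) and hippocampus WT (-0.0041) were nearly level. Tsc22d3 also had both KQ groups on top, with neocortex WT above hippocampus WT. Neighbours of 1 genotype did not differ by the test in Sgk1, Tsc22d3 and Arrdc2. For Fkbp5 and Zbtb16 the order was hippocampus KQ, hippocampus WT, neocortex KQ and neocortex WT. Without neocortex KQ F3, hippocampus KQ F1 or hippocampus KQ M2, 3 genes were called in KQ, and without neocortex WT F2, neocortex WT F3 or hippocampus WT F1 3 were called in WT, and without hippocampus WT F3 2. Counts over all genes are not given for these fits. Without both WT F2 libraries 7 genes were called in KQ and 4 in WT, where Fkbp5 no longer passed, beside 6601 and 4665 of the 17863 genes tested.

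Covariation within groups was examined next, since genes under 1 regulator may rise and fall together from mouse to mouse. Each gene was expressed as its deviation from the mean of its group, and the 45 pairs were correlated over 11 neocortex and 9 hippocampus libraries. Among the 36 pairs of induced genes 35 correlated positively in each region, with a median r of 0.602 over neocortex and 0.615 over hippocampus libraries, against -0.00763 and -0.0156 between the induced genes and all other genes tested. Single correlations between an induced gene and any other gene ran widely, from -0.725 at the 5th to 0.723 at the 95th percentile in the neocortex and from -0.749 to 0.76 in the hippocampus, so a single r of this size is common with so few libraries. Of 90 tests 31 had an exact permutation p under 0.05 (two-sided, libraries permuted within genotype) and 14 passed after Benjamini-Hochberg adjustment, 10 in the neocortex and 4 in the hippocampus. As the removal of sex and litter ties libraries together, these p values are approximate.

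**Figure D3:**
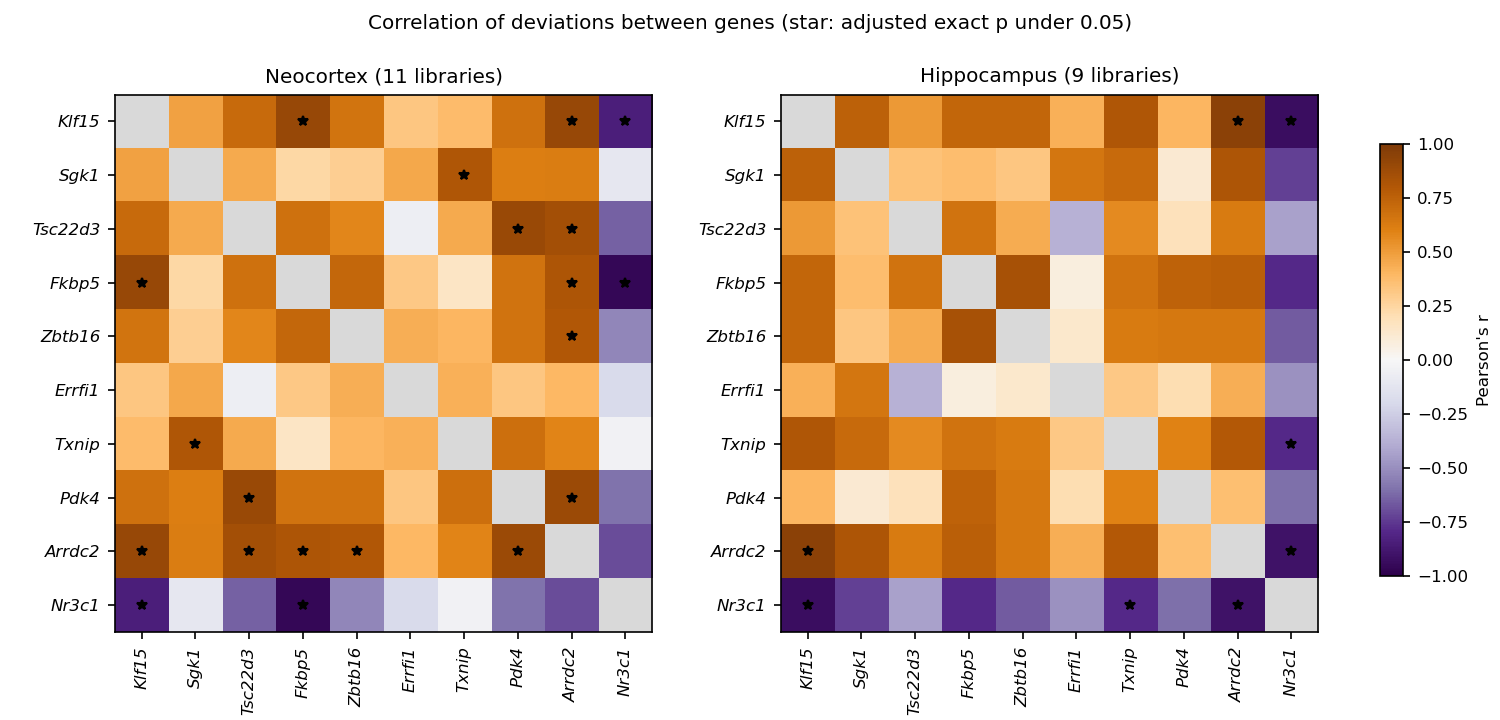
Pearson's r between the deviations of each pair of genes over 11 neocortex libraries (left) and 9 hippocampus libraries (right), with a star where the adjusted exact p was under 0.05. Induced genes correlated positively in 35 of 36 pairs in each region, and all 9 pairs with Nr3c1 were negative in both.

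The receptor ran against its targets. All 9 pairs of Nr3c1 with an induced gene were negative in both regions, with a median r of -0.6 over neocortex and -0.731 over hippocampus libraries. Pairs of Nr3c1 with other genes tested had a median r of 0.00227 and 0.014, in that order. Because the induced genes also followed each other, the 9 signs are not separate observations. Without WT F2 only 6 of the 9 neocortex pairs stayed negative (median r = -0.502), against 8 of 9 for hippocampus libraries (median r = -0.622). Repression of its own gene by the hormone-bound receptor is known from many cell types, and its part in these correlations was not tested. The tightest of all pairs was Nr3c1 with Fkbp5 in the neocortex (r = -0.959, rho = -0.964, n = 11, exact permutation p = 2.31e-05, adjusted 0.00208). Neocortex KQ M2, with the highest Nr3c1 of its group (0.16), had the lowest Fkbp5 (-0.27), and KQ M3, with the lowest Nr3c1 (-0.12), had the highest Fkbp5 (0.25). Without the 2 libraries farthest from the median of Nr3c1 the r was -0.946. In the hippocampus the same pair had r = -0.796 (rho = -0.783, n = 9, exact permutation p = 0.024, adjusted 0.107).

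Nr3c1 also ran against Klf15, with r = -0.84 in the neocortex (rho = -0.9, n = 11, exact permutation p = 0.000613, adjusted 0.0092) and -0.923 in the hippocampus (rho = -0.833, n = 9, exact permutation p = 0.00278, adjusted 0.0227). Without WT F2 neither passed, with r = -0.777 in the neocortex (n = 10, exact permutation, adjusted p = 0.0625) and -0.77 in the hippocampus (n = 8, exact permutation, adjusted p = 0.222). In the hippocampus it further ran against Arrdc2 (r = -0.902, rho = -0.833, exact permutation p = 0.00347, adjusted 0.026) and Txnip (r = -0.795, rho = -0.783, exact permutation p = 0.00382, adjusted 0.0264). Without the 2 libraries farthest from the Nr3c1 median these 3 hippocampus values were -0.69 for Klf15, -0.676 for Arrdc2 and -0.685 for Txnip. By Spearman's rho none of the 3 hippocampus pairs passed (adjusted p = 0.0893 for each, exact permutation). Without WT F2 the hippocampus pairs with Arrdc2 (r = -0.781, adjusted p = 0.17) and Txnip (r = -0.787, adjusted p = 0.213) did not pass either (n = 8, exact permutation). In the neocortex Txnip and Nr3c1 did not pass (r = -0.0365, rho = -0.245, exact permutation p = 0.927, adjusted 0.927), with r = -0.563 without the 2 farthest libraries and 0.234 without WT F2.

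**Figure D4:**
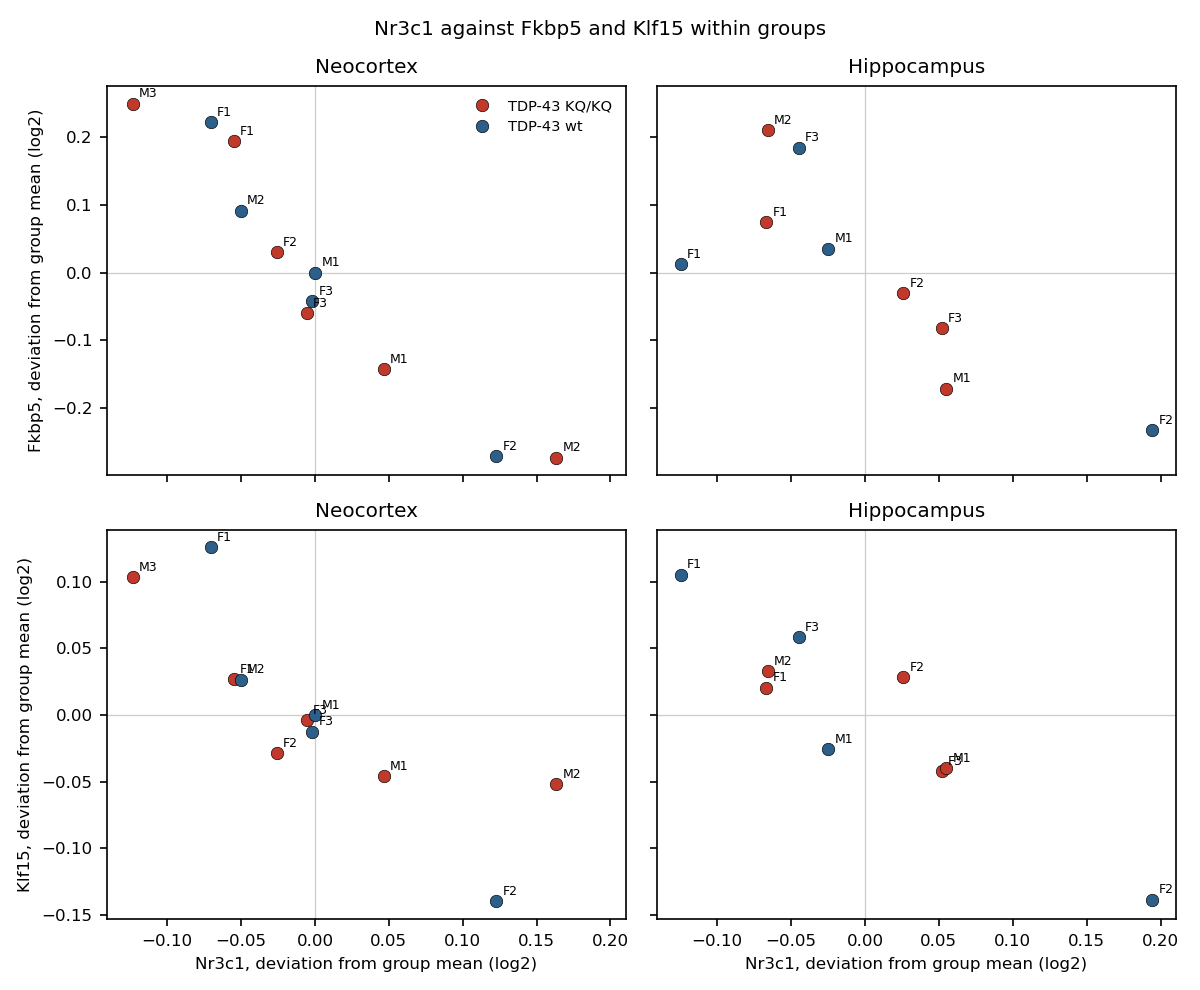
Deviation of Nr3c1 from its group mean (horizontal axis, log2) against that of Fkbp5 (top) and Klf15 (bottom) in neocortex and hippocampus, 1 point a library. Points fall from upper left to lower right, with r between -0.959 and -0.796, and the WT F2 libraries lie at the lower right in both regions.

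Among the induced genes Arrdc2 passed with 5 of 8 genes in the neocortex, although without WT F2 it passed with 2 (Tsc22d3, adjusted p = 0.0104, and Pdk4, adjusted p = 0.035, exact permutation) and by Spearman's rho with 1 (Tsc22d3, adjusted p = 0.0104, exact permutation). Over all libraries it followed Tsc22d3 (r = 0.852, rho = 0.909, exact permutation p = 6.94e-05, adjusted 0.00312), Pdk4 (r = 0.885, rho = 0.809, exact permutation p = 0.000544, adjusted 0.0092), Klf15 (r = 0.9, rho = 0.791, exact permutation p = 0.00245, adjusted 0.0227), Zbtb16 (r = 0.802, rho = 0.818, exact permutation p = 0.00272, adjusted 0.0227) and Fkbp5 (r = 0.815, rho = 0.745, exact permutation p = 0.00576, adjusted 0.0371). Fkbp5 followed Klf15 (r = 0.901, rho = 0.918, exact permutation p = 0.00015, adjusted 0.00451), Tsc22d3 followed Pdk4 (r = 0.892, rho = 0.882, exact permutation p = 0.000208, adjusted 0.00469), and Sgk1 followed Txnip (r = 0.812, rho = 0.827, exact permutation p = 0.00105, adjusted 0.0118). In these 8 neocortex pairs r stayed between 0.76 and 0.897 without the 2 libraries farthest from the median of the first gene. In the hippocampus only Klf15 with Arrdc2 passed among induced genes (r = 0.953, rho = 0.933, n = 9, exact permutation p = 0.00104, adjusted 0.0118), with r = 0.836 without the 2 farthest libraries. This pair did not pass by Spearman's rho (exact permutation, adjusted p = 0.0508) or without WT F2 (r = 0.9, n = 8, exact permutation, adjusted p = 0.0625). Errfi1 was the loosest member, with a median r of 0.361 over neocortex and 0.261 over hippocampus libraries to the other 8 and no pair that passed, and its pair with Tsc22d3 was the negative one in both regions (r = -0.0571 and -0.367).

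**Figure D5:**
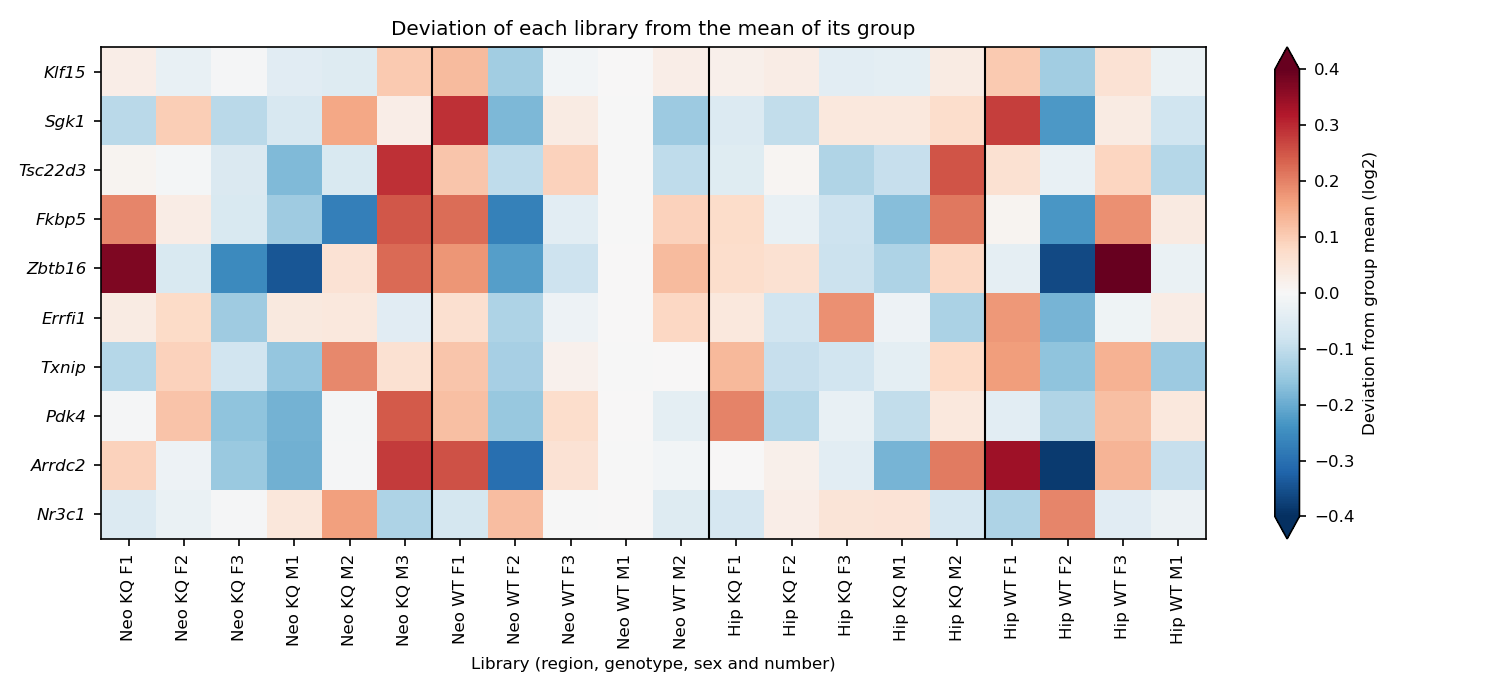
Deviation of each library from the mean of its group (colour, log2) for the 10 genes, with neocortex (Neo) and hippocampus (Hip) libraries in columns and vertical lines between the 4 groups. WT F2 is low for nearly all induced genes and high for Nr3c1 in both regions, and neocortex WT M1 is at 0 throughout.

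The 2 WT F2 libraries carried part of this pattern. They had the highest Nr3c1 of their groups (0.22 in neocortex, 0.017 in hippocampus) and a median deviation over the induced genes of -0.151 and -0.186. At the other end neocortex KQ M3 was the highest KQ library for 5 induced genes and hippocampus KQ M2 for 6. Without the WT F2 library of each region, a setting added after seeing the data, 33 of 36 induced pairs stayed positive in the neocortex (median r = 0.512) and 27 of 36 in the hippocampus (median r = 0.46), and Nr3c1 pairs were negative in 6 of 9 and 8 of 9. Of the 10 neocortex pairs that passed 6 still did, Nr3c1 with Fkbp5 among them (r = -0.944, n = 10, exact permutation p = 0.000116, adjusted 0.0104), and of the 4 hippocampus pairs 0 did. Another hippocampus pair, Fkbp5 with Zbtb16, passed in this setting (r = 0.721, n = 8, exact permutation p = 0.00139, adjusted 0.025). Over all libraries that pair had not passed (r = 0.844, n = 9, exact permutation, adjusted p = 0.0521). The neocortex pairs that no longer passed were Klf15 with Nr3c1 and Arrdc2 with Fkbp5, Zbtb16 and Klf15. Leaving out neocortex KQ M2 gave 25 passing pairs and leaving out hippocampus KQ M1 gave 9.

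For Tsc22d3 and Txnip the genes of most similar pattern over all 20 libraries, each centred on its group, were looked up among 17863 genes as a description. Tsc22d3 was most like A730020M07Rik (r = 0.918), Tmem260 (0.893), Eps8l1 (0.892), Hnrnpm (0.889) and Slc39a3 (0.872). Its nearest partner among the induced genes, Arrdc2, ranked 101st (r = 0.739). Txnip was most like Afap1l2 (r = 0.935), Stab1 (0.875), Raver2 (0.873), Nid1 (0.869) and Cep78 (0.861), and its nearest partner, Sgk1, ranked 86th (r = 0.759). None of these 10 look-alikes was called by genotype in either region, their differences lying between -0.25 and 0.32 on the log2 scale.

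Other genes of the pathway were described by lists, counted in each direction. Of 19 further glucocorticoid-responsive genes 13 were higher in KQ neocortex and 11 in KQ hippocampus, none called in either, with medians of 0.147 and 0.0597. Per1, a clock gene that is also a direct receptor target, came nearest, from -0.17 to 0.099 in KQ neocortex against -0.52 to -0.22 in WT (difference 0.36 ± 0.07, adjusted p = 0.0508). It ran from -0.48 to -0.41 in KQ hippocampus against -0.73 to -0.53 in WT (difference 0.16 ± 0.075, adjusted p = 0.346). Nfkbia, which encodes the NF-kappaB inhibitor induced by glucocorticoids, differed by 0.42 ± 0.11 in the neocortex (adjusted p = 0.117) and 0.35 ± 0.11 in the hippocampus (adjusted p = 0.188).

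Of 8 genes of steroid supply, the second corticosteroid receptor and the hormone axis, 1 fell in the hippocampus, where 0.246% of the genes tested were called lower. Crhbp, which binds and buffers corticotropin-releasing hormone, lay between 0.076 and 0.26 in KQ hippocampus, against 0.53 to 0.83 in WT (difference -0.46 ± 0.078, adjusted p = 0.0222). In KQ neocortex it lay between -0.11 and 0.16, against 0.24 to 0.33 in WT (difference -0.30 ± 0.073, adjusted p = 0.0925). The 10 receptor chaperones and co-chaperones were all lower in KQ neocortex, with a median of -0.14 and none called, and 8 of 10 were lower in KQ hippocampus with a median of -0.031. Hspa8, the constitutive Hsp70 chaperone, differed by -0.16 ± 0.054 in the neocortex (adjusted p = 0.228) and -0.033 ± 0.058 in the hippocampus (adjusted p = 0.837). Stip1, which passes clients between Hsp70 and Hsp90, differed by -0.17 ± 0.058 in the neocortex (adjusted p = 0.232) and 0.038 ± 0.062 in the hippocampus (adjusted p = 0.818).

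None of 6 receptor coregulators was called. All 6 were higher in KQ neocortex (median 0.0783) and 3 of 6 in KQ hippocampus (median 0.000789), with Ep300, a histone acetyltransferase, at 0.13 ± 0.071 in the neocortex (adjusted p = 0.397) and 0.010 ± 0.075 in the hippocampus (adjusted p = 0.966). Ncor1, a corepressor of nuclear receptors, differed by 0.084 ± 0.047 in the neocortex (adjusted p = 0.413) and -0.029 ± 0.051 in the hippocampus (adjusted p = 0.835). Of 12 genes that respond to glucose or fasting 7 were higher in KQ neocortex and 10 in KQ hippocampus, with medians of 0.0743 and 0.114 and none called. Sesn1, a stress-induced inhibitor of mTORC1, differed by 0.20 ± 0.045 in the neocortex (adjusted p = 0.0822) and 0.19 ± 0.049 in the hippocampus (adjusted p = 0.113). Irs2, an adaptor of the insulin receptor, differed by 0.34 ± 0.081 in the neocortex (adjusted p = 0.0925) and 0.13 ± 0.087 in the hippocampus (adjusted p = 0.51).

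Clock genes were mostly higher in KQ, with 10 of 14 higher in KQ neocortex and 11 of 14 in KQ hippocampus, none called, and medians of 0.0769 and 0.0404. Tef, an output factor of the clock, differed by 0.25 ± 0.048 in the neocortex (adjusted p = 0.0502) and 0.12 ± 0.052 in the hippocampus (adjusted p = 0.286), and Ciart, a clock repressor, by 0.19 ± 0.051 (adjusted p = 0.155) and 0.18 ± 0.055 (adjusted p = 0.168). Of 9 immediate early genes, which report recent neuronal activity, 7 were lower in KQ neocortex and 8 in KQ hippocampus, none called, with medians of -0.178 and -0.104. Ier2 differed by -0.23 ± 0.062 in the neocortex (adjusted p = 0.142) and -0.21 ± 0.066 in the hippocampus (adjusted p = 0.184), and Nr4a1 by -0.28 ± 0.10 (adjusted p = 0.258) and -0.17 ± 0.11 (adjusted p = 0.489). The part of the time of day or of activity at dissection in the differences of the induced genes was not tested.

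The induced genes lie apart in the genome (RefSeq, GRCm38.p6). Klf15 and Pdk4 share chromosome 6, at 90461043 to 90491803 and 5483351 to 5496278. Txnip is on chromosome 3 at 96557957 to 96561857, Errfi1 on chromosome 4 at 150853796 to 150868889, Arrdc2 on chromosome 8 at 70835129 to 70839720, Zbtb16 on chromosome 9 at 48651797 to 48836225 and Sgk1 on chromosome 10 at 21882184 to 21999903. Fkbp5 is on chromosome 17 at 28398753 to 28486149 and Tsc22d3 on the X chromosome at 140539528 to 140600522. The mutated gene Tardbp is on chromosome 4 at 148612382 to 148627084, and Errfi1, the only one of the 9 on that chromosome, starts 2226712 bases beyond its end.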

How the data were processed

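Per the labels and the study's methods, the upstream tools were cutadapt for trimming, STAR 2.5.2b against mm10, Salmon, and DESeq2 1.34.0 in R 4.1.0. The table the authors deposited is log2-like, being a variance-stabilizing transformation, which shrinks differences of low genes, from which sex and litter were regressed out with limma. The study states a lower bound on depth for its samples. Raw counts were not used here, so the depth of each library is unknown and only the spread between libraries gives the error.

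All 20 libraries entered 1 limma 3.58.1 fit in R 4.3.3 (lmFit, eBayes), with 4 groups of region and genotype and shared sex and litter terms, and Benjamini-Hochberg adjustment ran over 17863 genes. Left out were 4383 of 24528 genes at 0 in every library and genes tied in 3 libraries of 1 region, sex and litter. The test was checked on simulated data. Which libraries share a mouse is not labelled, but female libraries match between regions in genotype, number and litter, and regions were fitted as independent. Whether replicates are separate animals is likewise read from the numbers alone. Replicate numbers do not pair the genotypes, since same-numbered libraries are often of different litters. Deviations were correlated with Python 3.11.15 and numpy 2.4.6. Alternatives were other sex, litter and mouse terms, a replicate block, each region alone, robust estimation, no filter, median centring and each library left out. Members, lists and tests were chosen with earlier results of these data known. Genes named beside the members were, from each list, those called in either genotype comparison or else the 2 of lowest p. Some genes of the lists are not reported here, and the list values leave them out.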

Additional observations from a re-analysis of the deposited data

Results flagged for a closer look

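In the 40 groups formed by 10 genes, 2 regions and 2 genotypes, no library lay far enough from the rest of its group to be picked out by Dixon's test, where chance alone would pick about 2. The test takes each gene alone in a small group. It therefore cannot show a library that is low over many genes, as WT F2 was in both regions. No genotype difference of the 10 genes differed between the regions in the test of that difference.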

How the results depend on the processing

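Directions held better than calls. The KQ minus WT difference of the 10 genes kept its sign in all alternatives in the neocortex, and in the hippocampus in all but the replicate block, where Fkbp5 was at -0.000307. The replicate block of sex and number (paired libraries by label only) called 2 genes in neocortex, 5 in hippocampus, and between the regions 8 in KQ and 7 in WT. Beside these it called 40, 38, 6858 and 6091 of the 17863 genes tested, in that order. Same-numbered KQ and WT libraries did not deviate together (neocortex r from -0.107 to 0.117, hippocampus r from -0.604 to -0.127). Without litter as a fixed term (4 groups only, sex alone, or litter as a random effect) 8 neocortex and 7 hippocampus differences were called, beside 1812 to 2396 and 1584 to 2114 of the 17863 genes tested, against 40 and 69 in the reported fit. Those settings ignore the degrees of freedom already spent on litter. Each region fitted alone, with 4 and 3 residual degrees of freedom, called 0 in both, beside 7 and 0 of all genes tested. The female mouse as a random effect called 2 in the neocortex, as did robust estimation, beside 36 and 58 of all genes tested. Robust estimation, no filter and median centring each called 3 in the hippocampus, where Sgk1 no longer passed (adjusted p = 0.0501 to 0.0562). These 3 settings called 68, 72 and 69 of all genes tested, in that order. Without both WT F2 libraries 2 were called in the hippocampus, beside 41 of all genes tested. Leaving out 1 library gave 0 to 5 calls in each region, 0 for the difference between regions, 3 to 7 for the regions in KQ, 2 to 5 in WT and 9 to 25 correlated pairs. Spearman's rho gave 6 pairs, all in the neocortex, in place of 14, and 7 passed without both WT F2 libraries. The difference between the regions changed sign under single alternatives for Fkbp5 (0.000347 with separate sex and litter terms in the 2 regions) and, without both WT F2 libraries, for Nr3c1 (0.0093) and Sgk1 (-0.000721), all near 0. With a library left out it ran from -0.171 to 0.0144 for Fkbp5, -0.0688 to 0.0545 for Nr3c1, -0.080 to 0.13 for Sgk1, -0.0146 to 0.124 for Errfi1 and -0.257 to 0.0224 for Arrdc2, and the region effect of Pdk4 in WT from -0.00935 to 0.10. The female mouse as a random effect, with those separate terms, called 1 gene, Txnip, for that difference. Separate sex and litter terms could not be fitted for the region effects, which then depend on the sex and litter taken as baseline. No expression level was at hand, so low genes could not be told from high ones.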
